A study of Mus musculus with 18 samples.

Results

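Liver and pancreas of mice with 1 intact copy of Otub2 were compared across all genes, to describe which transcripts each organ's libraries carry, which they share and which they lack. Otub2 encodes a deubiquitinase of the OTU family, and the series compares genotypes of this gene in pancreas and in liver. The comparison uses 10 of the 18 libraries of the series: the 5 livers numbered HET 1 to HET 5 and the 5 pancreata numbered HET 9, 10, 11, 15 and 16, joined on gene symbol and scaled to CPM, which is counts per 1000000 counts of the library. HET stands for the OTUB2 +/- genotype, so that every animal compared carries the same targeted allele beside an intact copy. HET pancreata 9 and 11 came from females and 10, 15 and 16 from males, the sex of the liver donors was not given, and the ages of the animals are not given. The other 8 libraries (2 WT livers, 3 WT pancreata and 3 HOM pancreata, with 2 or 0 intact copies) served as a separate check. Liver and pancreas counts came from separate deposited tables, so tissue and table cannot be told apart. The labels do not say that each sample is a separate animal, so p-values measure the spread between these samples, which may be technical.

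Hepatocytes, the main cells of the liver, make most plasma proteins, the apolipoproteins that carry lipids in blood, and the enzymes of the urea cycle, of glucose output and of drug metabolism. Acinar cells, the main cells of the pancreas, make digestive enzymes and their cofactors, and the islets among them make insulin, glucagon and other hormones. The stomach lies next to the pancreas, and its mucosa makes pepsinogens, acid and trefoil peptides.

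The HET livers held 264660 to 1686234 counts and the HET pancreata 49502 to 1326541. HET pancreas 11 gave 58.0% and HET pancreas 16 gave 29.3% of all counts of the 5 pancreata. HET pancreata 9, 10 and 15 had 49502, 78090 and 162609 counts, against 1326541 in HET 11 and 670588 in HET 16. The same 2 deep libraries stood apart in content: protein-coding genes took 95.0% of counts in HET 11 and 91.7% in HET 16, but 60.1%, 66.1% and 65.0% in HET 9, 10 and 15. Each result on pancreas is therefore given with the levels in each library, or with and without these libraries. Because MARS-seq reads the 3′ end of a transcript, counts do not grow with transcript length and CPM can be compared between genes. In bulk tissue, fewer cells of a type and less RNA per cell cannot be told apart.

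The livers looked alike and the pancreata did not. In pairs of livers, 6 to 10 of the 10 leading genes were the same (median 7), and in pairs of pancreata 0 to 8 (median 1). The 10 leading genes took 18.1% to 23.3% of counts in the livers. In the pancreata they took 22.0% (HET 9), 6.68% (HET 10), 45.5% (HET 11), 3.35% (HET 15) and 35.1% (HET 16), so that the pancreata lay on both sides of the livers and no difference of the means was detected (exact permutation test, two-sided, p = 0.849, adjusted p = 0.849 over 4 measures). At an equal depth of 49502 counts, 5446 ± 304 genes were expected in a liver and 4221 ± 421 in a pancreas (SD, n = 5 each, exact permutation test, two-sided, p = 0.00794, adjusted p = 0.0317), with no overlap between the organs. That p is the smallest that 5 libraries against 5 allow. Outside the HET libraries the gap did not hold for every pancreas. WT pancreas 16 and HOM pancreata 10 and 21 were at 6220, 6214 and 5671 genes, within or above the HET livers (5141 to 5898). WT pancreata 11 and 12 and HOM pancreas 19 were at 4339, 3964 and 3938 genes. The share of counts on protein-coding genes was 95.9% ± 1.59 in liver and 75.6% ± 16.4 in pancreas (SD, n = 5 each, exact permutation test, p = 0.0159, adjusted p = 0.0317), and HET pancreas 11 lay within the range of the livers.

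**Figure D1:**
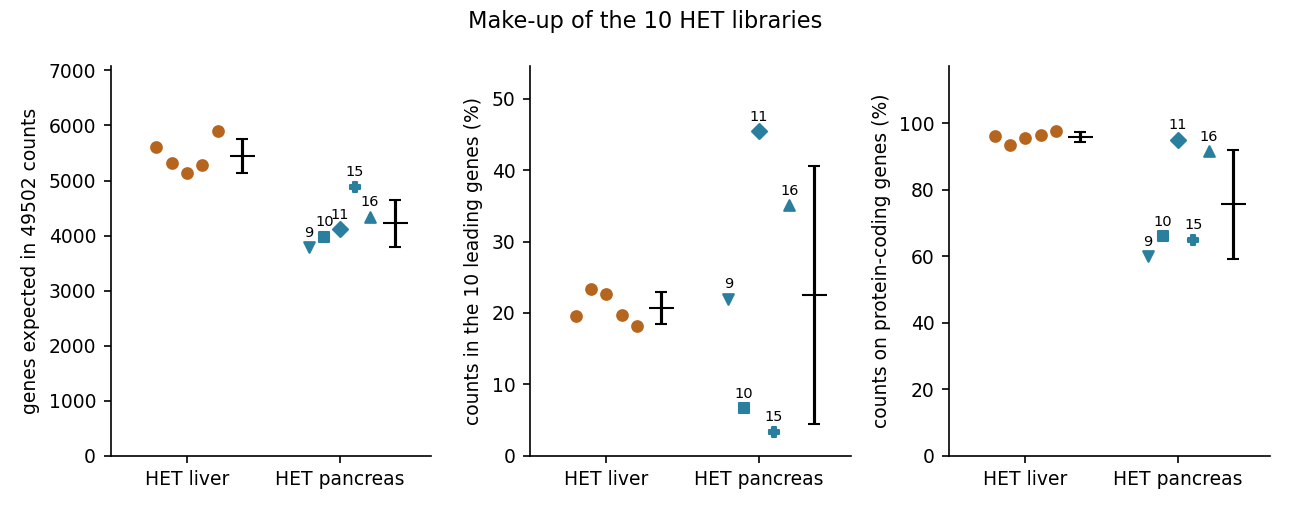
Genes expected in 49502 counts, percent of counts in the 10 leading genes and percent of counts on protein-coding genes, with 1 point for each HET library (pancreata numbered) and the mean ± SD beside each group. The livers keep together in all panels, while HET pancreata 11 and 16 part from 9, 10 and 15 in the share on protein-coding genes, 95.0% and 91.7% against 60.1% to 66.1%.

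The leading liver transcripts were those of apolipoproteins and plasma proteins. Apoe, an apolipoprotein that sends lipoproteins to their receptors (ENSMUSG00000002985.16, mm10 chromosome 7, 19696109 to 19699188, minus strand), led 4 of the 5 livers. It stood at 37041, 36559.5, 35797, 40388 and 30517 CPM in HET livers 1 to 5 and at 80.8, 12.8, 237, 55.3 and 34.3 CPM in HET pancreata 9, 10, 11, 15 and 16. The organs did not overlap, and the mean was 429 times as high in liver (log2 fold change 8.70 ± 1.05 (SE), edgeR quasi-likelihood test, adjusted p = 0.000197). In HET liver 2 the first place went to CT010467.1, an rRNA gene, at 39489.8 CPM.

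Apoa2, a structural protein of high-density lipoprotein (ENSMUSG00000005681.12, chromosome 1, 171225054 to 171226379, plus strand), stood at 24821, 20446, 25613, 29842 and 17909.7 CPM in the livers. Among the pancreata it had counts only in HET 11, at 33.9 CPM (log2 fold change 11.22 ± 1.56 (SE), edgeR adjusted p = 0.000212). Apoa1, the main protein of high-density lipoprotein (ENSMUSG00000032083.8, chromosome 9, 46228580 to 46230466, plus strand), was the least liver-bound of these. It reached 23624, 25185, 32099, 30182 and 17985 CPM in the livers, and 566, 0, 3793, 0 and 2808 CPM in HET pancreata 9, 10, 11, 15 and 16, where it ranked 21st in HET 11 and 34th in HET 16. Every liver was above every pancreas, and the log2 fold change was 4.17 ± 1.54 (SE, edgeR adjusted p = 0.0399). With TMM factors in place of total counts that call was lost (adjusted p = 0.103), as it was with DESeq2 size factors in edgeR (adjusted p = 0.0626) and without any of 6 libraries (HET livers 1 to 5 and HET pancreas 9). Apoa4, an apolipoprotein that intestine also makes, was seen in the same 2 deep pancreata, at 242 and 195 CPM, and in the livers at 197 to 906 CPM. Exact permutation tests gave p = 0.00794 for Apoe, Apoa1 and Apoa2 (two-sided, n = 5 against 5, adjusted p = 0.00992 over the 5 marker genes), the smallest value this design allows. The markers are leading genes of these same libraries and were chosen with earlier results known, so these p-values describe them and support nothing.

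Alb, serum albumin (chromosome 5), had 0 counts in every pancreas and 33895, 28538, 12331, 11112 and 27811 CPM in the livers. Against the 60.6 CPM that 3 counts make in the shallowest pancreas, its mean of 22737 CPM was at least 375-fold higher. Fabp1, the liver fatty acid-binding protein, and Serpina3k, a plasma protease inhibitor, likewise had 0 counts in all pancreata and liver means of 10162 and 9688 CPM, at least 168-fold and 159.9-fold higher. Trf, the iron carrier transferrin, was at 14272 to 22134 CPM in the livers and had counts in pancreas only in HET 11 (14.3 CPM). Hp, haptoglobin, which binds free haemoglobin, ran from 4308 (HET liver 5) to 28940.3 CPM (HET liver 3), and its highest pancreas was HET 10 at 435 CPM (log2 fold change 6.76 ± 1.35 (SE), edgeR adjusted p = 0.00116).

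The 10 leading pancreas genes, predicted genes and the rRNA gene CT010467.1 left out, were either absent or nearly absent from liver, or genes of general cell function. Pgc, Clps, Tff1, Pla2g1b and Gkn1 had 0 counts in every liver, Psca had 1 count over the 5 livers, and Actb, Rplp1, Cox4i1 and Rpsa had 6018 to 10838. CT010467.1 itself had a mean of 44230 CPM in pancreas, between Pgc and Clps, and 50181 counts in the livers. Clps, colipase, the cofactor of pancreatic lipase (ENSMUSG00000024225.5, mm10 chromosome 17, 28558149 to 28560766, minus strand), stood at 8202, 666, 141867, 12.3 and 38016 CPM in HET pancreata 9, 10, 11, 15 and 16 and had 0 counts in all 5 livers. Its lowest pancreas value is above 0 by only a few counts, so the groups part by little in HET 15. Pgc, progastricsin, a pepsinogen (ENSMUSG00000023987.14, chromosome 17, 47726842 to 47734482, plus strand), stood at 10019.8, 1549, 124513, 0 and 120199 CPM, and at 0 in every liver. HET pancreas 15 thus could not be told from the livers by Pgc. Against the 11.3 CPM that 3 counts make in the shallowest liver, the pancreas mean was at least 3331-fold higher for Clps and 4522-fold higher for Pgc. Exact permutation p-values were 0.00794 for Clps (adjusted p = 0.00992) and 0.0476 for Pgc (adjusted p = 0.0476), two-sided, n = 5 against 5. Both are leading genes of these same pancreata, so these p-values describe them and support nothing.

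The other genes without a liver count were also carried in quantity by only some pancreata. Tff1, a trefoil peptide of stomach mucus, stood at 8485, 243, 78669, 18.4 and 56014 CPM in HET pancreata 9, 10, 11, 15 and 16. Pla2g1b, the phospholipase A2 of pancreatic juice, stood at 7535, 64, 23038, 0 and 24763 CPM. Gkn1, gastrokine of the stomach surface, was at 6121, 38.4, 12963, 0 and 11348 CPM. In all 3 the order was HET 11 and HET 16 on top, then HET 9, then HET 10, then HET 15. Means in the other genotypes were lower than the HET means, which HET 11 and 16 raise most. The mean of 3 WT pancreata was 11.1 CPM for Clps, 48.8 CPM for Pgc and 0 for Tff1. The mean of 3 HOM pancreata was 5285, 3601 and 3439 CPM. Summed over the stomach genes described below, HOM pancreata were at 5066 to 16738 CPM and WT pancreata at 24.6 to 90.2 CPM. In HET pancreata 9, 10, 11, 15 and 16 that sum was 25676, 1831, 229081, 18.4 and 192292 CPM. A difference between genotypes was not tested.

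**Figure D2:**
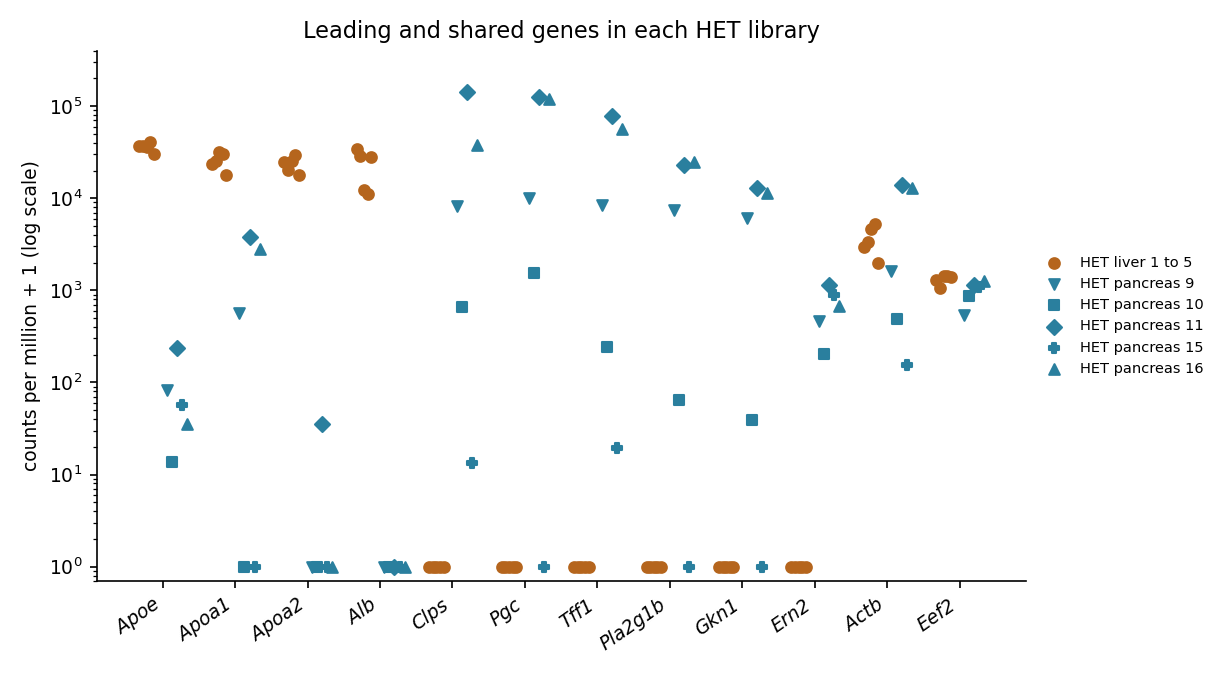
CPM + 1 on a log scale of 12 genes in each of the 10 HET libraries, with livers as circles and each pancreas with its own marker, and genes without a count drawn at 1. Apoe and Apoa2 separate the organs in all libraries, Clps spans 12.3 to 141867 CPM among the pancreata, and Eef2 overlaps between the organs.

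HET pancreata 9, 10 and 15 were led by other transcripts. CT010467.1 headed HET 9 at 148741 CPM, Gm23935, annotated as an miRNA gene, headed HET 10 at 15239 CPM, and Gm10800, a predicted protein-coding gene, headed HET 15 at 12035 CPM. Each was also present in liver, CT010467.1 at 3291 to 39489.8 CPM, Gm23935 at 225 to 2085 CPM and Gm10800 at 0 to 1149 CPM, and none was called between the organs by edgeR (adjusted p = 0.292, adjusted p = 0.0518 and adjusted p = 0.161). Gm23935 only just missed the threshold (log2 fold change −2.50 ± 0.98 (SE)). Reads of rRNA and of repeated or predicted genes may belong to other copies, so these levels are uncertain. HET pancreas 10 also carried Lcn2, a neutrophil and epithelial iron-scavenging protein, at 3227 CPM, S100a9, a neutrophil protein, at 3867 CPM, and Igha, the IgA heavy chain, at 2740.4 CPM.

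To place the leading genes on the genome, the 100 bases before the RefSeq start of the first leading gene of each organ with 1 RefSeq promoter entry that lies outside the GENCODE gene are shown (RefSeq, GRCm38.p6, the build also called mm10). Alb lies on the plus strand, with the stretch at chr5:90460770-90460869, and Pgc on the plus strand, at chr17:47726742-47726841. The GENCODE start of Pgc, 47726842, follows its stretch directly. For Alb the GENCODE start is 90460897, so the bases just before that start are not shown. The 2 stretches are therefore not to be compared for a TATA box. Capitals mark TATAAA, the letters of a TATA box, which in Pgc begins 31 bases before the start.
Alb: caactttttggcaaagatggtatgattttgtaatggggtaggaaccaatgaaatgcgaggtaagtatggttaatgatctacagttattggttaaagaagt
Pgc: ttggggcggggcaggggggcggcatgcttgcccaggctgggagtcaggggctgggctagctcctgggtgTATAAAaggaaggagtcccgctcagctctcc
No RefSeq promoter entry was matched for Clps, Tff1 and Psca. In windows of 250 bases before to 50 after the start, TATAAA (sense strand) occurred in 9.77% of 27025 genes with a promoter, in 7.44% of the 591 liver-restricted genes with one and in 2 of 28 pancreas-restricted genes. CAAAGTCCA, a form of the HNF4A motif, on either strand, occurred in 0.555% of all these genes, in 14 of the 591 liver-restricted genes (2.37%) and in none of the 28 pancreas-restricted or 167 shared genes. CACCTG on either strand, an E-box form that basic helix-loop-helix factors bind, occurred in 22.6% of all genes, 17.9% of liver-restricted and 32.1% of pancreas-restricted genes. These are counts of letters in windows, not of binding.

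Across all genes, 3516 passed the filter of edgeR and were tested with scaling by total counts. In liver 1346 were higher (38.3% of those tested) and in pancreas 338 (9.61%), at an adjusted p under 0.05, with a median log2 fold change of 1.51 over all genes tested. The filter asks for a minimum level in 5 libraries, and it left out 11 of the 40 genes with the highest pancreas mean, among them Clps, Pgc, Tff1, Pla2g1b, Psca and Gkn1, and none of the 40 with the highest liver mean. With no filter beyond 1 count, 21433 genes were tested, 2361 were higher in liver (11.0%) and 3788 in pancreas (17.7%). The split between the directions thus turned with the filter. Without any test, every liver was above every pancreas in 2985 of 21433 genes (13.9%), and every pancreas above every liver in 418 (1.95%). Scaling by TMM factors gave 1178 and 268 genes and DESeq2 size factors 1453 and 179, with fewer genes higher in pancreas than in liver in both. The median over all genes tested was 1.46 with TMM factors and 2.34 with DESeq2 size factors, and folds are to be read against it.

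**Figure D3:**
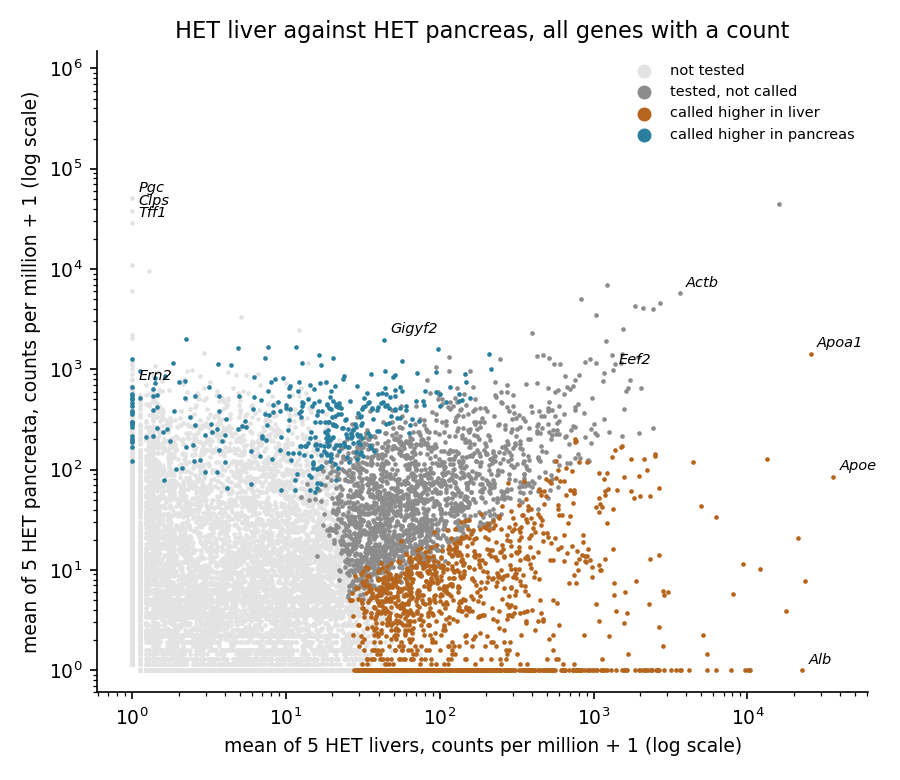
Mean CPM + 1 of the 5 HET livers (x) and the 5 HET pancreata (y) on log scales, with 1 point for each gene with a count, coloured by the edgeR result. Pgc, Clps and Tff1 sit at 0 in liver and were not tested after the filter, Alb sits at 0 in pancreas, and Actb and Eef2 lie among the genes tested and not called.

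The other genotypes, which share no library with this comparison, went the same way for most of these genes. Of the 1346 genes higher in HET liver, 1294 were higher in the mean of 2 WT livers than in the mean of 3 WT pancreata, and of the 338 higher in HET pancreas, 315 were lower in WT liver. Against the 3 HOM pancreata, with the same 2 WT livers, the numbers were 1303 and 320. Over all 3516 genes tested, 78.3% were higher in WT liver than in WT pancreas and 21.6% lower. Against HOM pancreas the shares were 77.3% and 22.7%. Of the 1346 genes, 916 had 0 counts in all 3 WT pancreata, so any liver count set their direction. These libraries came from the same deposited tables, so tissue and table cannot be told apart here either.

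Of the genes on the lists of liver function that were tested, most were called higher in liver, beside 38.3% of all genes tested. Members with no count in any pancreas passed the filter only through the livers and so had to differ, and the counts of calls below describe the lists and support nothing. Of the plasma carriers and inhibitors, 22 of 22 tested were called, 18 of them at 0 in every pancreas, and of the complement and coagulation genes 22 of 22, with 15 at 0. Their medians were log2 13.76 and 10.88, beside 1.51 for all genes tested. C3, the central complement protein, was at 3641 to 6519 CPM in the livers and at 0 to 76.8 CPM in the pancreata (log2 fold change 6.83 ± 0.97 (SE), edgeR adjusted p = 0.000212). C4b, which acts with it, was called as well (8.64 ± 1.09). Of the apolipoproteins 9 of 10 were called, 3 of those tested being at 0 in every pancreas, with a median of 9.47. Together the apolipoproteins held 10.1% to 14.6% of liver counts and 0.00553% to 0.438% of pancreas counts, and the highest pancreata were HET 11 (0.438%) and HET 16 (0.312%).

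Enzymes of liver metabolism were also called mostly higher in liver. All 15 cytochrome P450s tested were called, 11 of them at 0 in every pancreas, as were 21 of the 26 on the list. Cyp2e1, which oxidises ethanol, was at 4191 to 7016 CPM in the livers and had 1 library with counts in pancreas, HET 15 at 6.15 CPM. Of the urea cycle and amino acid genes 16 of 19 were called, and 11 of the 19 were at 0 in every pancreas. Ass1, argininosuccinate synthase, was at 5578 to 11244 CPM in the livers and at 13.6 and 10.4 CPM in HET pancreata 11 and 16 only (log2 fold change 10.11 ± 1.16 (SE), edgeR adjusted p = 0.000197). Hpd, of tyrosine breakdown, had pancreas counts only in HET 10 (25.6 CPM). Among the genes of glucose and fructose handling 8 of 9 were called, with 4 at 0 in every pancreas, and Khk, ketohexokinase, was the least one-sided of those named, at 815 to 1424 CPM in the livers against 0 to 101 CPM (4.41 ± 1.11, adjusted p = 0.00545).

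The major urinary proteins, which male liver secretes above all, had counts in liver alone: all 22 genes on the list had 0 counts in the 5 pancreata. Together they took 0.330% of counts in HET liver 5 and up to 1.29% in HET liver 2. Mup3 ran from 1283 (HET liver 5) to 6041 CPM (HET liver 2). These genes are near-identical copies, so the counts of each are uncertain.

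Transcription factors that set the hepatocyte state were called in 6 of 8 tested, 3 of which were at 0 in every pancreas. Cebpa stood at 678 to 1210.0 CPM in the livers and at 45.2 and 11.9 CPM in HET pancreata 11 and 16 alone (log2 fold change 5.95 ± 1.12 (SE), edgeR adjusted p = 0.000725). Hnf4a stood at 321 to 585 CPM and had pancreas counts only in HET 11, at 11.3 CPM (6.80 ± 1.14). Foxa3, a forkhead factor of gut-derived organs, was not called: the livers stood at 128, 136, 156, 144 and 80.7 CPM and the pancreata at 60.6, 0, 565, 0 and 586 CPM, on both sides of the livers (−0.95 ± 1.19, adjusted p = 0.539). Markers of liver cells other than hepatocytes were called in 4 of 5 tested, 2 of which were at 0 in every pancreas. Clec4f, a Kupffer cell receptor, was at 87.8 to 219 CPM in the livers and 0 in all pancreata, while C1qa, made by macrophages of many organs, overlapped (109 to 297 CPM against 0 to 206 CPM, adjusted p = 0.187). Hbb-bs, a haemoglobin chain that marks blood, was also higher in liver (447 to 5642 CPM against 6.78 to 106 CPM, edgeR adjusted p = 0.00174). The haemoglobin genes Hba-a1 and Hba-a2 overlapped and were not called. Hba-a1 stood at 427 to 2224 against 18.4 to 1053 CPM (edgeR adjusted p = 0.196). Hba-a2 stood at 281 to 1707 against 6.15 to 838 CPM (edgeR adjusted p = 0.262).

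Few genes known from pancreas were counted in the pancreata. Of 30 acinar enzyme genes, 20 had 0 counts in every HET pancreas, and 17 of these had none in liver either. Among those at 0 in all 10 libraries were Prss1, Prss2, Pnlip, Cel, Cpb1 and the 6 amylase genes listed, all of them defining acinar products. How reads were assigned to genes and how the counts were corrected is not given in the sources used here, and the part of either in these zeros was not tested. The list held 1.58%, 0.0730%, 16.5%, 0.0105% and 6.28% of counts in HET pancreata 9, 10, 11, 15 and 16. Clps and Pla2g1b made up nearly all of this in each pancreas but HET 15, where Pnliprp1, a lipase-related protein, stood at 61.5 CPM, Clps and Cela1 at 12.3 CPM each and Pla2g1b at 0, of a sum of 104.5 CPM. The share in HET 15 lay inside the range of the livers, 0.00986% to 0.0192%. Without the filter 6 of 13 acinar genes were called higher in pancreas, beside 17.7% of all genes. Of the 30 genes 24 had 0 counts in every liver, so any of them with a count could only be called that way. The number of calls describes the list and supports nothing.

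The 1 acinar gene that passed the filter, Cela1, an elastase, was higher in liver: 95.6 to 136 CPM in the livers, and 0, 0, 33.9, 12.3 and 22.4 CPM in the pancreata (log2 fold change 2.70 ± 0.78 (SE), edgeR adjusted p = 0.0118). The call was lost without the filter (adjusted p = 0.0786). Xbp1, a secretory-stress factor on the acinar list, was also higher in liver (214 to 348 CPM against 0 to 88.2 CPM, adjusted p = 0.00876). Ptf1a and Rbpjl, which set the acinar state, had 0 counts in all 10 libraries. Gata6, another factor of that list, was higher in pancreas, at 989.9, 423, 126, 1076 and 59.6 CPM against 1.39 to 10.7 CPM in the livers (log2 fold change −6.88 ± 1.15 (SE), adjusted p = 0.000322), and it was lower in HET 11 and 16 than in the other 3 pancreata.

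Islet genes were sparse. Ins2, Gcg, Iapp and Chgb had 0 counts in all 10 libraries. Ins1, a mouse insulin gene, was seen in HET pancreas 10 at 756 CPM and in HET 16 at 44.7 CPM. Scg3, a granule gene of that list, stood at 717 CPM in HET 10 (56 counts), 23.4 CPM in HET 11 and 41.8 CPM in HET 16. Sst, somatostatin, was seen only in HET 11 at 60.3 CPM. Ghrl, ghrelin, a hormone of the stomach and of a few islet cells, was seen in HET 9, 11 and 16 at 60.6 (3 counts), 1992 and 722 CPM. The list held Ttr, a hormone carrier that liver also makes and that a liver list shares, and this gene alone was tested from it, at 10246 to 17252 CPM in the livers against 0 to 33.9 CPM (log2 fold change 9.97 ± 1.39 (SE), adjusted p = 0.000212). Pax6, a factor of endocrine cells and of brain and eye, stood at 1111, 256, 6.78, 1673 and 70.1 CPM in the pancreata, and was lowest in HET 11 and 16. Of 16 beta-cell identity genes 6, among them Nkx6-1, Nkx2-2 and Neurod1, had no count in any of the 10 libraries.

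Genes of stomach mucosa took more of the pancreas counts than acinar enzymes did in 4 of the 5 libraries. Their share was 2.57%, 0.183%, 22.9%, 0.00184% and 19.2% in HET pancreata 9, 10, 11, 15 and 16, and at most 0.000890% in the livers. Beside Pgc, Tff1 and Gkn1 these were Atp4a, the acid pump of parietal cells, at 323, 0, 4603, 0 and 2262 CPM, Tff2, a trefoil peptide, at 2912 CPM in HET 11, and Chia1, a chitinase of the stomach, at 2244 CPM in HET 11. None passed the filter, and without it 12 of 12 with a count were called higher in pancreas, beside 17.7% of all genes. Of the list, 11 genes had 0 counts in every liver, so any of them with a count could only be called that way. The number of calls describes the list and supports nothing. Gast, gastrin, and Lipf, the gastric lipase, had 0 counts in all 10 libraries.

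Stratified epithelium genes, expressed in skin and in the mouse forestomach, moved with them: the list took 0.682% of counts in HET 11 and 1.10% in HET 16, against 0.259%, 0.168% and 0.0283% in HET 9, 10 and 15, and without the filter 15 of 17 were called higher in pancreas, beside the same 17.7%. Of these 17 genes 13 had 0 counts in every liver, so this number too describes the list and supports nothing. Lgals7, a galectin of such epithelia, stood at 667, 0, 4082, 0 and 5616 CPM, and Krtdap, a secreted keratinocyte protein, at 949, 1357, 1007, 0 and 2139.9 CPM, both with 0 counts in the livers. Krt19, a keratin of duct cells and of other simple epithelia, stood at 2869, 0, 5098, 0 and 4348 CPM, and at 0 to 49.8 CPM in the livers. The part of stomach or forestomach tissue in the pancreas profile was not tested. The share of intestinal genes was 0.00256% to 0.0710% in the pancreata and 0.0274% to 0.0973% in the livers. Lgals4, a galectin of the gut lining on that list, was called higher in pancreas although HET 10 (25.6 CPM) lay within the livers (7.56 to 46.5 CPM, log2 fold change −3.02 ± 0.92 (SE), edgeR adjusted p = 0.0166), and the call was lost without the filter (adjusted p = 0.0624) and the sign turned with TMM factors and without HET 11 and 16 (0.36).

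**Figure D4:**
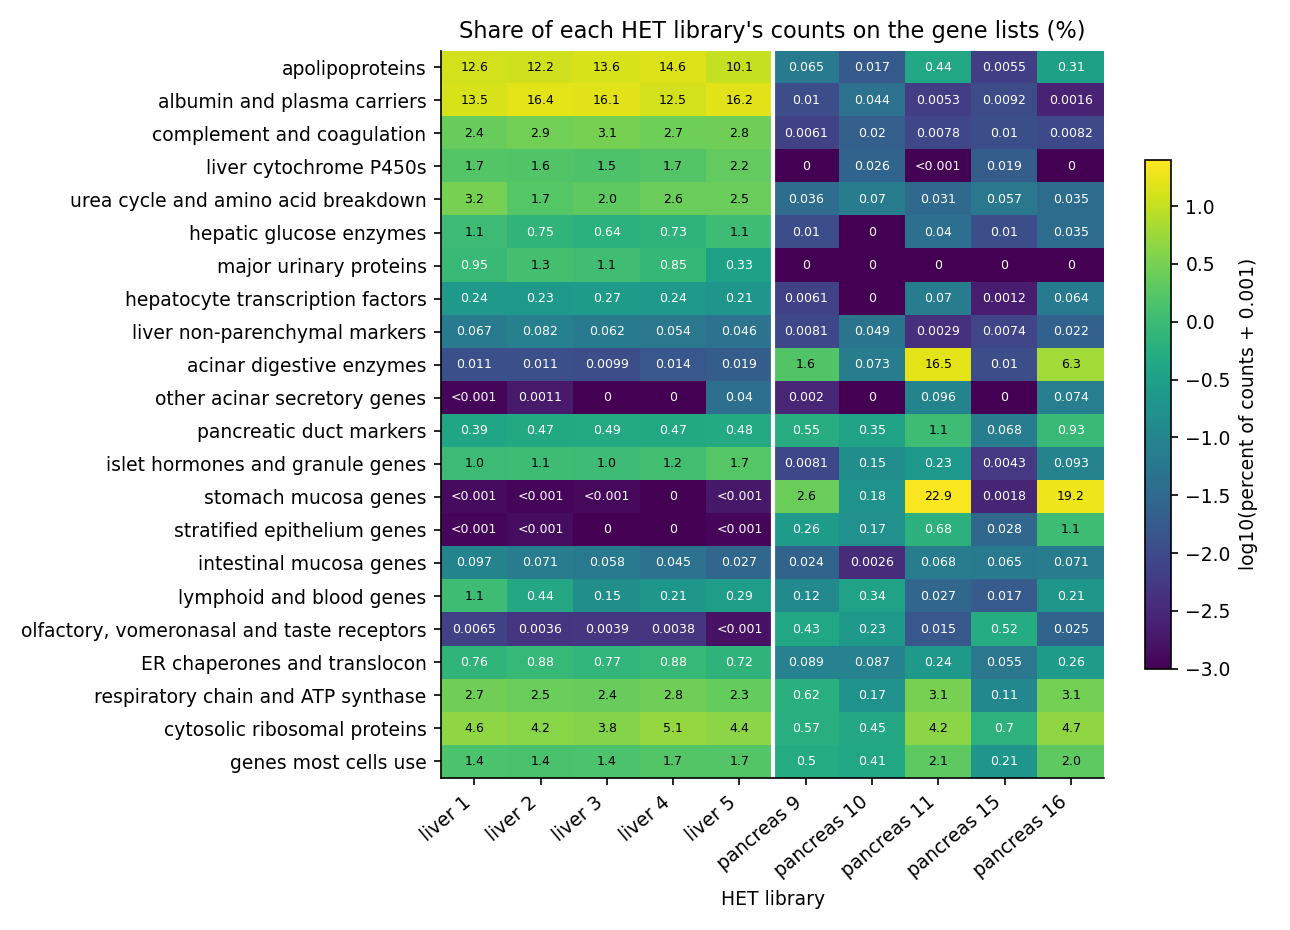
Percent of each HET library's counts on 22 gene lists, printed in each cell and coloured by log10 of the percent plus 0.001, with livers on the left and pancreata on the right. Among the livers the apolipoproteins run from 10.1% to 14.6% and the major urinary proteins from 0.330% to 1.29%, while the acinar list runs from 0.0105% to 16.5% and the stomach list from 0.00184% to 22.9% among the pancreata.

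Tissue-restricted genes were defined by 3 or more counts in every library of an organ and 0 in every library of the other. Liver had 794 such genes (3.70% of the 21433 with a count) and pancreas 87 (0.406%). The liver set was mostly protein-coding (725 genes, 91.3%, beside 67.8% of all genes with a count) and held 20.5% to 26.1% of liver counts. The 10 of them with the highest lowest-library level included Alb, Fabp1, Serpina3k, Hpx, which binds haem, and Ahsg, the plasma glycoprotein fetuin. Only 28 of the 87 pancreas genes (32.2%) were protein-coding, beside the same 67.8%, and 56 had predicted symbols. Together the 87 held 4.30% to 8.15% of pancreas counts. Of the leading pancreas genes only Tff1 was among them, with 3 counts in HET 15, where Clps fell under 3 counts and Pgc, Pla2g1b and Gkn1 had none.

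Of the pancreas-restricted genes, Ern2 (chromosome 7), the stress sensor of mucus-secreting epithelia, had the highest floor. It stood at 465, 205, 1129, 892 and 671 CPM in HET pancreata 9, 10, 11, 15 and 16 and at 0 in every liver, at least 59.3-fold higher, a difference that the rule for restricted genes fixes in its direction. It varied less between the pancreata than Clps did, but it was picked for its high floor, which favours a small spread, so this supports nothing. WT and HOM pancreata also had Ern2, at means of 592 and 807 CPM against 1.46 CPM in WT liver. The others named by the rule were of many kinds. Prss27, a serine protease also called pancreasin, stood at 323, 640.3, 24.9, 1070.0 and 74.6 CPM, and Pla2g2d, a secreted phospholipase A2, at 606, 717, 27.1, 498 and 47.7 CPM, both lower in HET 11 and 16 than in the other 3. Slc7a11, a cystine transporter, ran from 33.2 to 869 CPM, Htr6, a serotonin receptor, from 49.2 to 474 CPM, and Pde1c, a phosphodiesterase, from 117 to 1665 CPM. Cacna2d3, a calcium channel subunit, ran from 45.2 to 545 CPM, Pclo, a scaffold of synapses, from 35.8 to 653 CPM, and Bc1, a noncoding RNA of neurons, from 32.8 to 1114 CPM. Tmem51os1, an antisense transcript whose reads may belong to its partner, ran from 37.3 to 1114 CPM. In other genotypes, 85 of the 87 were lower in WT liver than in WT pancreas, beside 21.6% of all genes tested, which include only 21 of the 87. Of the 87, 32 had 0 counts in both WT livers, so any count in WT pancreas set their direction. The number thus describes the set and supports nothing.

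Cela1 was the only acinar enzyme that passed the filter, so no other could be called. Of the genes called higher in pancreas, those with the smallest p-values among the genes without overlap between the organs included Gigyf2, Myo6, Iqgap1 and Agpat4. Gigyf2, which takes part in translational repression, stood at 3071, 3726, 701, 1285 and 1104 CPM in the pancreata and at 29.8 to 61.0 CPM in the livers (log2 fold change −5.52 ± 0.85 (SE), edgeR adjusted p = 0.000231). Myo6, a motor protein of actin filaments, stood at 889, 1421, 351, 455 and 1151 CPM against 9.31 to 33.3 CPM (−5.21 ± 0.81). Iqgap1, a scaffold of the cell cortex, stood at 2606, 2779, 183, 2368 and 379 CPM against 1.86 to 15.4 CPM (−7.87 ± 1.18). Agpat4, an enzyme of phospholipid synthesis, stood at 60.6, 615, 189, 363 and 424 CPM against 0 to 4.38 CPM (−7.67 ± 1.09). Iqgap1 and Gigyf2 were highest in HET 9 and 10, whereas Clps was highest in HET 11.

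Chemosensory receptors, which neither organ is known to need, were counted in the pancreata at 0.434%, 0.233%, 0.0149%, 0.520% and 0.0252% of counts in HET 9, 10, 11, 15 and 16, against at most 0.00651% in the livers. Without the filter 54 of 215 (25.1%) were called higher in pancreas and 0 in liver, beside 17.7% and 11.0% of all genes, and Vmn2r93, a vomeronasal receptor, reached 609 CPM in HET 15 with 0 in HET 11. Of the 1822 receptor genes on the list 1743 had 0 counts in every liver, so the calls describe the list and support nothing. Their share was high where the protein-coding share was low. The part of this signal in the genes called higher in pancreas was not tested.

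Shared genes, with 3 or more counts in all 10 libraries, numbered 219 (1.02%). They held 3.67% to 8.74% of liver counts and 7.52% to 25.8% of pancreas counts. Of the 208 that were tested, 8 were higher in liver, 115 in pancreas and 85 not called. With DESeq2 size factors in edgeR the numbers higher in liver and in pancreas were 19 and 49, and with TMM factors 8 and 90. The rule itself leans to pancreas, since 3 counts are 60.6 CPM in HET pancreas 9 and 1.78 CPM in HET liver 5, so these counts describe the set and support nothing. Eef2, the elongation factor of translation, was close in both organs, at 1292, 1070.1, 1436, 1447 and 1392 CPM in the livers and 545, 871, 1151, 1076 and 1247 CPM in the pancreata (log2 fold change 0.44 ± 0.61 (SE), edgeR adjusted p = 0.581). Ndufa2, a subunit of respiratory complex I, stood at 594 to 959.7 CPM and 455 to 977 CPM (−0.04 ± 0.61). Pigr, which carries IgA across epithelia, overlapped too, with HET pancreas 10 at 3419 CPM and the other pancreata at 129 to 474 CPM.

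Among shared genes that were called, Dync1h1, the heavy chain of dynein, stood at 117 to 156 CPM in the livers and 371 to 828 CPM in the pancreata with no overlap (−2.11 ± 0.61, edgeR adjusted p = 0.0119). Arpp19, a phosphatase inhibitor of the cell cycle, stood at 177 to 257 and 423 to 2566 CPM (−2.22 ± 0.72, adjusted p = 0.0222). Zbtb7a, a transcriptional repressor, was called with overlap (166 to 227 against 129 to 3369 CPM, −2.78 ± 0.87, adjusted p = 0.0189). All 3 calls were lost without the filter, at adjusted p-values of 0.101, 0.0967 and 0.0603, and Zbtb7a turned in sign with TMM factors and without HET pancreata 11 and 16 (0.53). Mgll, a lipase of monoglycerides, was not called (−1.56 ± 0.70, adjusted p = 0.0806).

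Genes of general cell function were called higher in liver about as often as all genes tested. Of the cytosolic ribosomal protein genes 31 of 73 (42.5%) were higher in liver, of the respiratory chain and ATP synthase 19 of 43 (44.2%) and of genes most cells use 9 of 21 (42.9%), beside 38.3% of all genes, so these shares are not a result about the lists. Their medians were log2 2.40, 2.45 and 2.00, and 0 genes of the 3 lists were higher in pancreas, beside 9.61% of all genes. Of the endoplasmic reticulum chaperones and translocon, 10 of 19 (52.6%) were higher in liver, for example P4hb, a disulfide isomerase (1639.8 to 3042 CPM against 0 to 305 CPM, log2 fold change 4.13 ± 1.23 (SE), edgeR adjusted p = 0.0143). Sec11c, a subunit of signal peptidase, was the 1 gene of that list higher in pancreas (−2.54 ± 0.84, adjusted p = 0.0243), and its call was lost without the filter (adjusted p = 0.0916) and under both other scalings. Uqcrq, of respiratory complex III, missed the threshold (3.22 ± 1.26, adjusted p = 0.0503). Meg3, a noncoding RNA of the nucleus, was higher in pancreas, at 7.46 to 768 CPM against 0 to 20.2 CPM (−6.07 ± 1.45, adjusted p = 0.00385).

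Other lists gave few calls. Of the duct markers 1 of 4 was higher in liver, Ambp, which a liver also secretes (3246 to 4063 CPM against 0). Of lymphoid and blood genes 3 of 8 were higher in liver, of mitochondrial DNA genes 2 of 7, and of stromal and muscle genes 0 of 1, counts at or below the 38.3% of all genes. No adipocyte gene and no further acinar secretory gene was tested, and without the filter 2 of 10 adipocyte genes were higher in pancreas and 1 in liver, and 3 of 6 acinar secretory genes in pancreas, beside 17.7% of all genes higher in pancreas and 11.0% in liver. Of the acinar secretory list 11 genes had 0 counts in every liver, so its calls describe the list and support nothing.

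The leading genes of general cell function lay on both sides of the livers, by library. Actb, cytoskeletal actin, stood at 1965 to 5192 CPM in the livers and at 1616, 487, 13792, 154 and 12878 CPM in HET pancreata 9, 10, 11, 15 and 16, so that HET 11 and 16 lay above all livers and the other 3 below all of them (−0.67 ± 1.05, edgeR adjusted p = 0.623). Cox4i1, of respiratory complex IV, did the same, with 9283 and 11635 CPM in HET 11 and 16 against 18.4 to 424 CPM in the other 3 and 1271 to 2203 CPM in the livers. Rpsa, Rps15, Rpl8 and Rplp1, of the ribosome, also had HET 11 and 16 above every liver. Other named members did not: Rps18 stood at 1154 and 1956 CPM in HET 11 and 16 against 1230.0 to 2101 CPM in the livers, and Uqcr11 and Uqcrq, of respiratory complex III, lay below every liver in both. Over the whole lists, HET 11 and 16 were both above every liver in 11 of 82 ribosomal protein genes with a count, in 8 of 45 respiratory chain genes and in 3 of 28 genes most cells use, and both below every liver in 53, 28 and 16. Over all genes with a count, both were above in 9.65% and below in 17.8%. HET 9, 10 and 15 were all below every liver in 65, 40 and 13 genes of the 3 lists, beside 4779 of all 21433 genes with a count. In HET 11 and 16 ribosomal proteins took 4.24% and 4.73% of counts, close to the 3.83% to 5.05% of the livers, and in HET 9, 10 and 15 they took 0.570%, 0.451% and 0.702%.

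With HET pancreata 11 and 16 left out, 4234 genes were tested, 2466 were higher in liver (58.2%) and 1113 in pancreas (26.3%), and the median log2 fold change was 3.53. With HET pancreata 9, 10 and 15 left out instead, 6273 were tested, 2642 were higher in liver (42.1%) and 1328 in pancreas (21.2%), and the median was 1.15. These fits share the 5 livers and are given side by side only. In the first, ribosomal protein genes were called higher in liver in 60 of 73 and in pancreas in 0, and in the second in 49 of 76 and 8. The leading pancreas genes and the stomach genes passed the filter of the second fit through the libraries that carry them, so their calls there are not given.

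The sets of restricted and shared genes moved as well. Without HET 11 and 16, 2528 genes were liver-restricted, 251 pancreas-restricted and 264 shared. Without HET 9, 10 and 15, the numbers were 1017, 346 and 2356. Each set held all members of the set from 10 libraries, since fewer libraries set fewer conditions. Thinned to 49502 counts per library, the sets shrank to 307, 19 and 29 genes, and calls to 310 higher in liver and 17 in pancreas. Before thinning, 4755 genes reached 3 counts in every liver against 555 in every pancreas.

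**Figure D5:**
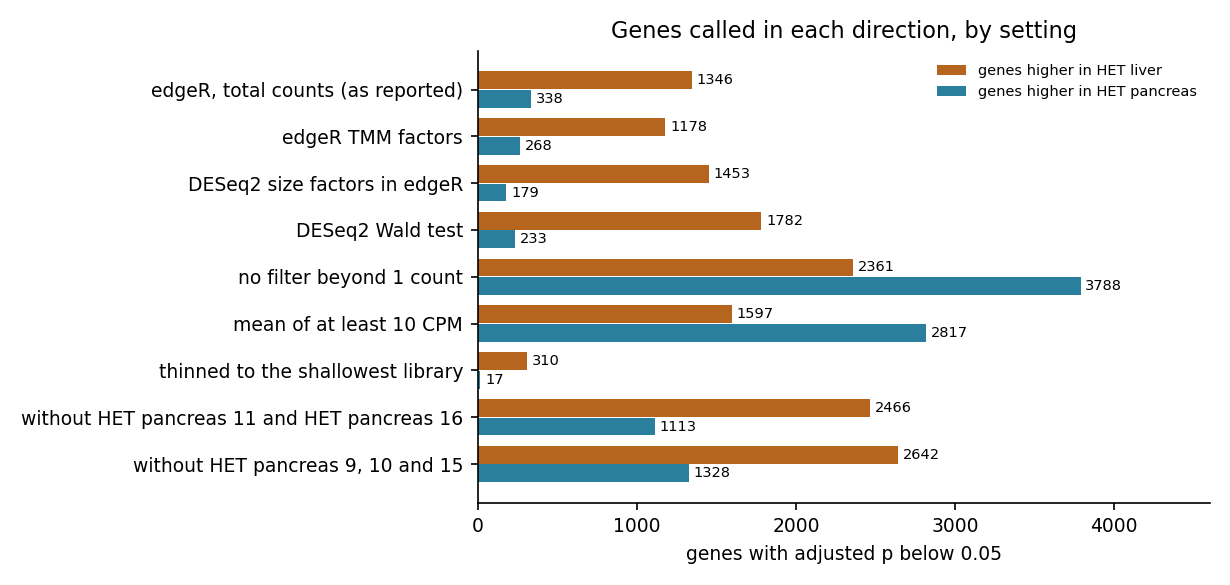
Number of genes with an adjusted p under 0.05 in each direction (x) under 9 settings (y), with liver and pancreas as separate bars. Calls higher in pancreas run from 17 (thinned) to 3788 (no filter), and those higher in liver from 310 to 2466 or 2642 when part of the pancreata is left out.

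The targeted gene was barely counted in the HET libraries of either organ. Otub2 had 5 counts in the 5 livers together and 1 in the 5 pancreata, at 0 to 3.78 CPM in each liver and at 1.49 CPM in HET pancreas 16 alone. Its mean was 38.6 CPM in WT pancreas, 1.63 CPM in HOM pancreas and 3.22 CPM in WT liver, and these were not tested. In WT pancreas 12, 1 count makes 15.8 CPM. The part of the gene that was deleted is not given and only transcript ends were read, so these counts check neither the genotype nor a difference between organs. Its paralog Otub1, a more widely expressed deubiquitinase, stood at 39.1 to 98.4 CPM in the livers and at 0, 0, 123, 0 and 174 CPM in the pancreata (log2 fold change 0.04 ± 1.09 (SE), edgeR adjusted p = 0.977).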

How the data were processed

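RNA was extracted with TRI reagent and libraries were made by a bulk form of MARS-seq, which reads 3′ ends, per the labels' protocols. The submitters' processing notes name cutadapt, STAR and mm10; versions, strand use and barcode collapsing are not given there. The authors deposited whole-number counts per gene, 1 table per tissue, per the files, and call them corrected without saying for what, so the tests hold only if the values stayed close to counts. Both tables list the same 55291 symbols, of which 53292 matched GENCODE mouse release M21 (mm10). No column was left over.

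CPM is counts scaled to 1000000 per library. The test was edgeR 4.0.16 (R 4.3.3) on the 10 HET libraries: filterByExpr, total counts as library size, a robust quasi-likelihood fit with tissue as the term and Benjamini-Hochberg adjustment over all genes tested, threshold 0.05. The common dispersion was 0.872, with 8 residual degrees of freedom. Single values were compared by exact permutation of 5 against 5 libraries, two-sided. Restricted genes had at least 3 counts in every library of an organ and 0 in the other. Folds against a group at 0 use 3 counts in its shallowest library as the floor, which covers counting error only. The expected number of genes at 49502 counts was computed from each library's counts.

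Genes were named by rule: the 5 markers, the 10 highest means per organ, the top gene of each library, the 10 smallest p-values per direction without overlap, the 10 restricted or shared genes with the highest lowest-library level, and up to 4 leading members of each list. S100a9, Tff2, Chia1, Sst and the list members named for having no counts were chosen after their values were seen. The comparison, the 28 gene lists and the rules were chosen with earlier results of these data known. The alternatives were TMM, DESeq2 1.42.0 (size factors and Wald test), other filters, no robust fit, all 18 libraries, thinning, other count minimums and leaving out libraries. TMM factors together with leaving out HET pancreata 11 and 16, or 9, 10 and 15, were added after seeing the data. The fit was also run on simulated counts as a self-test, whose outcome is not reported here and backs no result above. Promoters are from RefSeq (GRCm38.p6).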

Additional observations from a re-analysis of the deposited data

Results flagged for a closer look

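In 72 groups of 5 libraries (marker levels, list sums and make-up, in each organ), 9 held a library that stood far from the other 4, with a gap of over 0.71 of the group's range. That limit flags about 1 in 20 groups of independent, normally distributed values. Some of these groups are skewed or hold zeros, and some share genes, so the 9 are not set against chance. Clps was 141867 CPM in HET pancreas 11, beside a median of 8202 CPM, and Apoa2 was 33.9 CPM there and 0 in the other 4. Plasma carriers summed to 435 CPM in HET pancreas 10, beside a median of 92.2 CPM, and this was all Hp. Adipocyte genes summed to 333 CPM in the same library, beside 62.6 CPM. Mitochondrial DNA genes summed to 2005 CPM in HET pancreas 15, beside 969.7 CPM, of which mt-Nd2 was 1156 CPM. In liver, cytochrome P450s summed to 22123 CPM and the islet list, which here was nearly all Ttr, to 17254 CPM in HET liver 5, beside medians of 16731 and 10622 CPM. Duct markers summed to 3935 CPM in HET liver 1, beside 4734 CPM. Acinar secretory genes summed to 398 CPM in HET liver 5, beside 1.86 CPM, with Dmbt1 at 385 CPM and Reg1 at 11.3 CPM.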

How the results depend on the processing

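Counts of calls are given as higher in liver, then in pancreas, from 1346 and 338. They moved by over 1.5 times with no filter (2361 and 3788), with thinned libraries (310 and 17), without HET pancreata 11 and 16 (2466 and 1113) and without HET pancreata 9, 10 and 15 (2642 and 1328). For pancreas alone they moved with a mean of at least 10 CPM (2817), all 18 libraries in the fit (2896) and DESeq2 size factors (179). TMM factors combined with leaving pancreata out, an alternative chosen after seeing the data, gave 2797 and 942 without HET 11 and 16 and 2515 and 1404 without HET 9, 10 and 15. Leaving out each library in turn gave 1184 to 1784 in liver and 394 to 641 in pancreas, and any 1 liver, or HET pancreas 11, moved the latter by over 1.5 times.
Liver-restricted genes numbered 1462 at 1 count, 384 at 10 counts, 307 after thinning and 2528 without HET pancreata 11 and 16, and pancreas-restricted genes 31 at 10 counts, 19 after thinning, 251 without HET 11 and 16 and 346 without HET 9, 10 and 15. Shared genes numbered 501 at 1 count, 63 at 10 counts, 29 after thinning and 2356 without HET 9, 10 and 15. Leaving out each library gave 797 to 1276 liver-restricted, 91 to 163 pancreas-restricted and 221 to 333 shared genes, the highest without HET pancreas 11 for the first 2 and without HET pancreas 9 for the last.
The sign turned without HET pancreata 11 and 16 for Actb (2.30, and 4.07 with TMM factors), Cox4i1 (3.72 and 5.50), Foxa3 (3.33 and 5.03) and Rps15 (3.12 and 4.91), and only with TMM factors for Rpsa (3.00), Ndufa2 (1.78), Mgll (0.95), Zbtb7a (0.53) and Lgals4 (0.36). It turned without HET pancreata 9, 10 and 15 for Otub1 (−1.14, and −1.26 with TMM factors) and Rpl8 (−0.98 and −1.12). Of 39 genes followed through 22 settings, 17 values turned. The cause was not tested, beyond fewer genes or libraries entering a fit. No paired analysis was possible because HET livers are numbered 1 to 5 and HET pancreata 9, 10, 11, 15 and 16, so no number is shared. Depth limits the pancreas side: 3 counts were 60.6 CPM in HET pancreas 9 and 2.26 CPM in HET pancreas 11. There 1 count was 20.2 and 0.754 CPM, and no value between 0 and that of 1 count can be read.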

Other observations

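HET liver 5, the deepest library, held counts of acinar genes that no pancreas had. Ctrb1, chymotrypsinogen B, had 94 counts there (55.7 CPM) and 0 in the other 4 livers and the 5 pancreata. Reg1, a secreted protein of acinar cells, had 19 counts there and 0 elsewhere. Dmbt1, a mucosal scavenger protein, had 650 counts there (385 CPM), 33 in HET pancreas 11 and 17 in HET pancreas 16. Clps and Pla2g1b had 0 counts in that liver.

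HET pancreas 9, with the fewest counts, carried Clps, Pgc and the epithelial keratin Krt19 in the middle of their range among the pancreata (8202, 10019.8 and 2869 CPM) beside a CT010467.1 level of 148741 CPM, and Tle4, a transcriptional corepressor, was its next gene at 16727 CPM.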
